A study of Mus musculus with 5 samples.

Results

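The comparison described here is between day 8 and day 6 of a mouse embryonic stem cell differentiation culture that received no MPA. It rests on 2 of the 5 arrays of the study, the day 6 control and the day 8 control, chosen by their labels. Of 18193 genes on the array, 12824 had a signal above the floor of 86.8 on at least 1 of these arrays, and 5369 lay under it on both. Each gene is read from its probe set that was brightest on average over the 5 arrays, and for 172 of the genes under the floor another probe set exceeded it. The floor is the median of all probe sets other than controls, and signals under it have no order. The cells were mouse ES cell derivatives, guided to a pancreatic fate on plates coated with gelatin. The day 6 and day 8 controls were grown for 6 and 8 days without MPA, a day 5 control for 5 days, and 2 further groups received 2 µM MPA from day 5 until day 6 or day 8. The labels give no ES cell line, strain or growth factor, and MPA is named as the labels name it. With 1 array per group there is no spread between cultures, so a difference between the control arrays is a size without a test.

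Embryonic stem cells first take on an epiblast state, in which Pou5f1 and Nanog keep the cells pluripotent and Nodal signals drive the exit to mesendoderm. Nodal is held in check by its own targets, the secreted Lefty proteins. Endoderm then forms under Foxa and Sox17 factors, and Pdx1, Ptf1a and Nkx6-1 mark the pancreatic buds, from which Neurog3 opens the endocrine programme. Cells that leave the endoderm route in such cultures can become neural, mesenchymal or muscle cells, each with its own transcription factors.

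Both control arrays were scaled by the authors to a 2% trimmed mean signal of 500, with medians of 86.5 at day 6 and 94.5 at day 8. The 3'/5' signal ratio, which is larger in degraded RNA, was 1.19 and 1.55 for Gapdh, and 3.04 and 2.81 for Actb. Its part in the differences was not tested. A gene was counted where its signals were 2-fold or more apart, and a fold with 1 array under the floor is a lower bound, written "at least". In all, 907 genes were higher at day 8 (4.99% of all genes and 7.07% of those measured) and 825 were lower (4.53% and 6.43%). These shares of all genes are the background for each count over a gene list below. The lists were chosen with earlier results of these data known. A list count set beside a share of all genes, here or in the limma fit, is therefore a description and not independent support. For 234 of the higher and 205 of the lower genes the fold is a bound. Large differences were fewer, with 27 genes 8-fold higher and 28 8-fold lower. The middle of the distribution lay at 0.0113 on the log2 scale for genes that exceeded the floor at both days, with the 5th and 95th percentiles at -1.09 and 1.14. Of 1240 other probe sets for the 2-fold genes, 79.7% went the same way as the one that stands for the gene, against 63.9% for all measured genes. Where averaging a gene's probe sets, or leaving out probe sets marked as shared between transcripts, brings a named gene under 2-fold, this is said beside it.

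**Figure D1:**
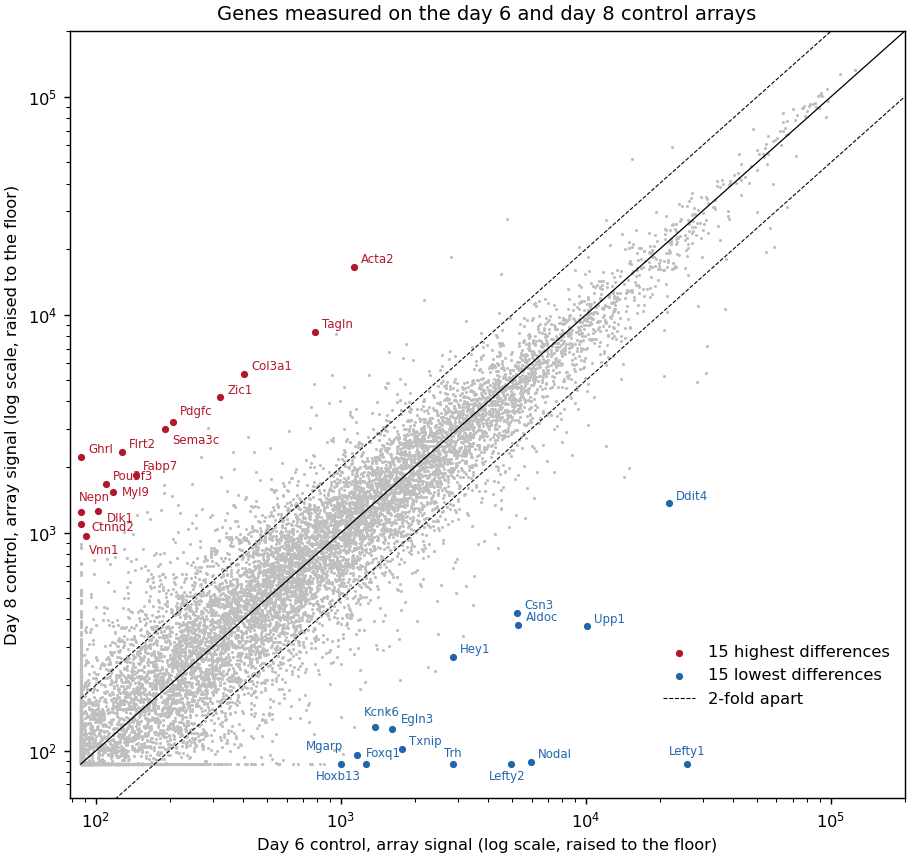
Signal of each measured gene on the day 6 control array (horizontal) and the day 8 control array (vertical), both on log scales and raised to the floor, with 1 point per gene and 1 array per day. Red points are the 15 genes with the largest positive difference and blue points the 15 with the largest negative one; Lefty1 lies lowest relative to day 6 and Ghrl highest, and dashed lines mark 2-fold.

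The study holds a further pair of arrays of the same days, from cultures with MPA, which share no array with the controls. Among the genes 2-fold higher in the controls, 366 (40.4%) were 2-fold higher in the MPA pair too, 340 went the same way by less, 170 went the other way and 31 were under the floor there. Among those 2-fold lower, the counts were 350 (42.4%), 298, 142 and 35. In the MPA pair 5.14% of all genes were 2-fold higher and 5.14% lower. A limma fit over these 4 arrays, with day tested and MPA as a term, has 1 residual degree of freedom. Its error is the disagreement between the pairs, moderated by a prior drawn from all genes. A call does not mean that the pairs agreed in size. Where a gene lay under the floor at the same day in both pairs, its values for that day are the floor itself. Its limma difference is then a bound, and its SE and p hold no spread from that day. Actc1, called higher, had a log2 difference of 2.95 without MPA and at least 5.66 with it. The fit called 344 of 11599 genes higher (2.97%) and 326 lower (2.81%) at an adjusted p under 0.05. Only 71 were called without the trended and robust prior, and 15 with the mean over the probe sets of a gene. Genes named below as called by limma were called at the setting first described.

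The Nodal pathway held the largest differences of the whole comparison. Lefty1, a secreted Nodal antagonist and Nodal target, had signals of 11261 at day 5, 25814 at day 6 and 76.5 at day 8. From day 6 to day 8 it was at least 298-fold lower. Lefty2, its close relative, was at 1254 at day 5, 4931 at day 6 and 2.5 at day 8, at least 56.8-fold lower. Both Lefty genes and Nodal itself stood above their day 5 signal at day 6, and then lay near or under the floor at day 8. Nodal, the ligand, was at 3882 at day 5, 5943 at day 6 and 88.6 at day 8, 67.1-fold lower. Foxh1, the DNA-binding partner of Smad proteins in Nodal responses, was at 873 at day 5, 855 at day 6 and 5.1 at day 8, at least 9.86-fold lower. The MPA pair gave at least 115-fold lower for Lefty1, 58.8-fold lower for Nodal and at least 11.2-fold lower for Foxh1. In the limma fit Nodal had a log2 difference -5.97, SE 0.29, adjusted p 3.73e-05, lower in 2 of 2 pairs. For Lefty1 the limma difference of -7.53 is set against the floor, as its day 8 signals lay under it in both pairs. In bulk RNA, fewer cells of a type and less RNA per cell cannot be told apart, here and for every group below.

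Over the Nodal and mesendoderm list, of 14 members on the array, 8 were lower by 2-fold or more and 0 higher by as much, 2 lay within 2-fold and 4 were under the floor on both arrays, where 4.53% of all genes were 2-fold lower. Lhx1, a factor of anterior mesendoderm, was at 6733 at day 5, 839.5 at day 6 and 268 at day 8, 3.14-fold lower. The epiblast ligand gene Fgf5 was at 5101 at day 5, 207 at day 6 and 45 at day 8, at least 2.39-fold lower. Unlike Nodal, both were brightest at day 5. Tdgf1, the Nodal co-receptor, Fgf8, Cer1 and Mixl1 were already under the floor on both arrays. The list median over all members was -1.20 on the log2 scale, against 0 over all genes, and ranged from -1.43 to -0.23 over 7 processing alternatives. Fgf5 was under 2-fold with the floor at the 65th percentile and after averaging its probe sets.

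Of the pluripotency network, the core factor Pou5f1 was at 7598 at day 5, 1016 at day 6 and 96 at day 8, 10.6-fold lower at day 8 than at day 6. Nanog was at 5572 at day 5, 446 at day 6 and 20.1 at day 8, at least 5.14-fold lower. The RNA-binding protein gene L1td1, also typical of pluripotent cells, was at 15459 at day 5, 3159.7 at day 6 and 335 at day 8, 9.43-fold lower. These 3 genes were the only ones of 22 list members to be 2-fold lower. Not every member was lower: Klf4 was at 61.4 at day 5, 144 at day 6 and 672 at day 8, 4.66-fold higher, and Sox2, which neural progenitors also use, at 2959 at day 5, 2687 at day 6 and 4784 at day 8, 1.78-fold higher. Another 8 members, among them Tdgf1, Dppa3, Klf2 and Utf1, were under the floor on both arrays.

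The labelled pancreatic fate was checked against its defining markers. Pdx1, at 4.1 at day 6 and 78.6 at day 8, and Nkx6-1, at 4.5 at day 6 and 10.1 at day 8, were under the floor on both arrays. Ptf1a was at 109.5 at day 6 and 130.2 at day 8, 1.19-fold higher. Of 18 pancreatic progenitor genes on the array, 2 were higher by 2-fold or more, 1 was lower by as much, 10 lay within 2-fold and 5 were under the floor on both arrays. Onecut1, a factor of early pancreas and liver, was at 4.8 at day 5, 109 at day 6 and 301 at day 8, 2.77-fold higher. Onecut2, which neurons express as well, was at 102 at day 5, 87 at day 6 and 542 at day 8, 6.22-fold higher. Mnx1, a factor of the early dorsal bud and of motor neurons, was at 131 at day 5, 1518 at day 6 and 421 at day 8, 3.6-fold lower. At day 6 and day 8 the defining markers of pancreatic progenitors were thus under the floor or, for Ptf1a, little above it. With the floor at the 65th percentile Onecut1 was under 2-fold.

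Endocrine transcription factors included several that were higher at day 8. Of 11 on the array, 7 were higher by 2-fold or more and 0 lower by as much, 3 lay within 2-fold and 1 was under the floor on both arrays. Across all genes 4.99% were 2-fold higher and 4.53% lower. Neurog3, which starts endocrine differentiation, had signals of 5.7 at day 5, 4.3 at day 6 and 193 at day 8, at least 2.22-fold higher. Its target Neurod1 was at 101 at day 5, 98 at day 6 and 646 at day 8, 6.59-fold higher. Insm1, a zinc finger factor of endocrine and neuronal precursors, was at 6.2 at day 5, 2.6 at day 6 and 539 at day 8, at least 6.22-fold higher. These genes lay near or under the floor at day 5 and day 6 and above it at day 8. Isl1 was at 268 at day 5, 244 at day 6 and 617 at day 8, 2.52-fold higher, and Pax6, another factor of endocrine cells, at 302 at day 5, 518 at day 6 and 1770.5 at day 8, 3.42-fold higher. The co-repressor gene Runx1t1 was at 52.4 at day 5, 57.5 at day 6 and 517 at day 8, at least 5.96-fold higher. Pax4, of beta and delta cells, was under the floor on both arrays. With MPA, Neurog3, Isl1 and Neurod1 were at least 14.9-fold higher, 28.9-fold higher and 8.75-fold higher. Neurod1, Isl1, Insm1 and Pax6 also work in neurons, of whose genes many were higher at the same day. With the mean over probe sets Neurog3, Isl1 and Pax6 were under 2-fold, at log2 differences of 0.58, 0.98 and 0.42. Neurog3 was also under 2-fold with the floor at the 65th percentile, at 0.13.

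Of the differences set against the floor, the largest increase was in a peptide hormone gene. Ghrl, of ghrelin, was at 13.1 at day 5, 52.1 at day 6 and 2224 at day 8, at least 25.6-fold higher. Its day 6 signal was under the floor in both pairs, so its limma log2 difference of 4.99 is a lower bound. Sst, of somatostatin, was at 5.6 at day 5, 6 at day 6 and 727 at day 8, at least 8.38-fold higher. Pyy, of peptide YY, was at 102 at day 5, 134 at day 6 and 764 at day 8, 5.71-fold higher. Gcg, of glucagon, was at 9.6 at day 5, 6.7 at day 6 and 271 at day 8, at least 3.13-fold higher. These 4 hormone genes were near or under the floor at day 5 and day 6. Chgb, of a granin of secretory granules, was at 10.1 at day 5, 12.6 at day 6 and 312 at day 8, at least 3.6-fold higher. Tph1, of serotonin synthesis, went the opposite way, with 17.8 at day 5, 980.3 at day 6 and 101 at day 8, 9.74-fold lower. Of 25 hormone and granule genes, 7 were higher by 2-fold or more, 1 was lower by as much, 5 lay within 2-fold and 12 were under the floor on both arrays. The shares over all genes were 4.99% higher and 4.53% lower. Those under the floor on both arrays included Ppy, Iapp, Gip, Gast and Slc30a8, and Ins2, of insulin, was at 53.8 at day 6 and 92.5 at day 8. With MPA, Ghrl was at least 39.4-fold higher, Gcg at least 29.6-fold higher, Pyy at least 33.3-fold higher and Sst at least 2.88-fold higher. With the floor at the 65th percentile Gcg and Chgb were under 2-fold.

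Several endoderm genes were lower at day 8. Of 15 definitive endoderm genes, 5 were lower by 2-fold or more, 1 was higher by as much and 9 lay within 2-fold. Among all genes 4.53% were 2-fold lower and 4.99% higher. The 1 that was higher was Pyy, the hormone gene given above. Trh, of thyrotropin-releasing hormone and bright in early definitive endoderm, was at 4484 at day 5, 2865 at day 6 and 53.7 at day 8, at least 33.020-fold lower. Prdm1, a repressor factor of early endoderm and other lineages, was at 740.5 at day 5, 940.5 at day 6 and 100.4 at day 8, 9.37-fold lower. Sox17 was at 3104 at day 5, 3669.9 at day 6 and 1550.3 at day 8, 2.37-fold lower. Hhex, a factor gene of foregut endoderm, was at 1114 at day 5, 259.5 at day 6 and 120.5 at day 8, 2.15-fold lower. The pioneer factors of endoderm, Foxa1 and Foxa2, did not share this pattern. Foxa1 was at 489.7 at day 5, 2705 at day 6 and 4339 at day 8, 1.6-fold higher. Foxa2 was at 5711 at day 5, 1378 at day 6 and 1884 at day 8, 1.37-fold higher. Sox17 was 16.9-fold lower in the MPA pair, and the difference between the pairs was not tested. Hhex was under 2-fold with the floor at the 65th percentile.

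A few liver and gut genes were 2-fold apart in each direction, and some epithelial genes were lower. Of 21 hepatic and yolk sac genes, 2 were higher by 2-fold or more, 4 were lower by as much, 10 lay within 2-fold and 5 were under the floor on both arrays. Here and for the intestinal genes, the shares over all genes were 4.99% higher and 4.53% lower. Rbp4, of the plasma retinol carrier, was at 297 at day 5, 182 at day 6 and 797 at day 8, 4.37-fold higher, and Ttr, its partner in plasma, at 5.2 at day 5, 342 at day 6 and 1234 at day 8, 3.6-fold higher. Both went apart from Apoe, of a lipid carrier, at 4149 at day 5, 3614 at day 6 and 889.7 at day 8, 4.06-fold lower. Alb and the fibrinogen genes Fgb and Fgg were under the floor on both arrays, and Afp was at 43.8 at day 6 and 119.8 at day 8. Of 14 intestinal genes, 3 were higher by 2-fold or more, 2 were lower by as much, 3 lay within 2-fold and 6 were under the floor on both arrays. Cdx2, the main intestinal factor, was at 529.5 at day 5, 86 at day 6 and 88 at day 8. Its relative Cdx1 was at 4 at day 5, 203 at day 6 and 6.1 at day 8, at least 2.34-fold lower. Tff3, of a mucosal peptide, was at 17.9 at day 5, 11.7 at day 6 and 272 at day 8, at least 3.14-fold higher. Among 22 epithelial genes, 4 were lower by 2-fold or more and 0 higher by as much, 16 lay within 2-fold and 2 were under the floor on both arrays, where 4.53% of all genes were 2-fold lower. The tight junction gene Cldn3 was at 399.5 at day 5, 294 at day 6 and 101 at day 8, 2.91-fold lower, and Epcam at 9426 at day 5, 9158 at day 6 and 4531 at day 8, 2.02-fold lower, while the mean over its probe sets gave a log2 difference of 0.33, the other way. Cdh1, of E-cadherin, was at 8083 at day 5, 8119 at day 6 and 7607 at day 8, 1.07-fold lower. With the floor at the 65th percentile Cdx1, Tff3 and Cldn3 were under 2-fold. The other 2-fold intestinal genes, Krt20 and Lgr5, were under 2-fold on the log2(signal + floor) scale. Averaging the Epcam probe sets turned its log2 difference to 0.33.

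**Figure D2:**
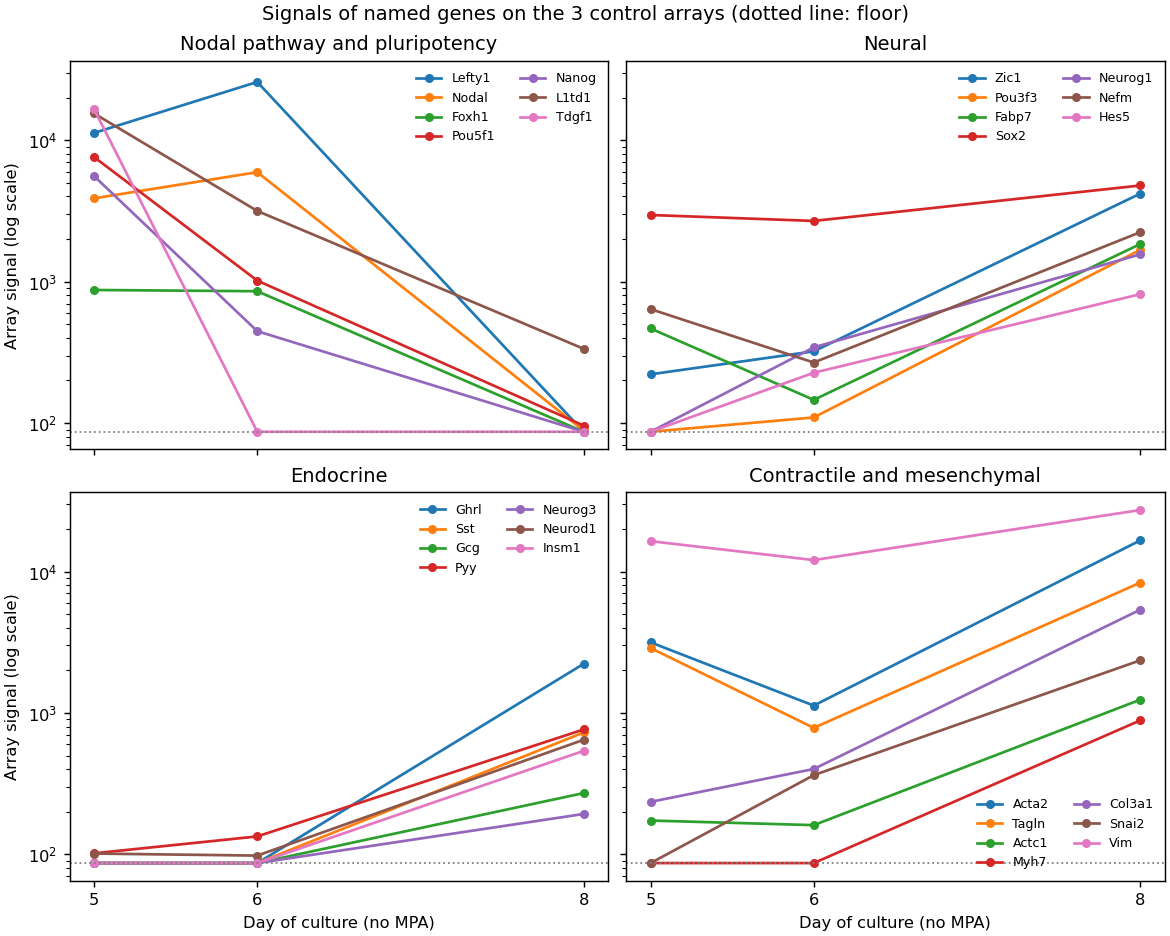
Signals of 28 named genes on the 3 control arrays at day 5, day 6 and day 8 (log scale, raised to the floor, shown as a dotted line; 1 array per point). Nodal and Lefty1 are highest at day 6 and at or next to the floor at day 8, Neurog3 and Ghrl leave the floor at day 8, and Acta2 and Tagln are lowest at day 6.

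Many neural genes were higher at day 8. Of 23 neural progenitor genes on the array, 12 were higher by 2-fold or more and 0 lower by as much, 6 lay within 2-fold and 5 were under the floor on both arrays, against 4.99% of all genes that were 2-fold higher. Zic1, a factor of the dorsal neural tube, was at 221 at day 5, 321 at day 6 and 4188 at day 8, 13.032-fold higher. Pou3f3, a POU factor of neural progenitors, was at 11.6 at day 5, 109.5 at day 6 and 1675 at day 8, 15.3-fold higher, and the radial glia gene Fabp7 at 466 at day 5, 146 at day 6 and 1841 at day 8, 12.6-fold higher. Rfx4, of neural tube and cilia genes, was 4.3-fold higher, and the Notch target Hes5 3.59-fold higher. Pou3f1, a POU factor also of the epiblast, was 1.72-fold lower, the only measured member to be lower. Olig2, Olig3, Lhx2 and Dbx2 were under the floor on both arrays. Without shared probe sets Hes5 was under 2-fold.

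In the MPA pair the 3 leading genes were at 193 or less. There Pou3f3 was at 127 at day 6 and 114 at day 8, Fabp7 at 165 at day 6 and 77.5 at day 8, while Zic1 was at 83.7 at day 6 and 193 at day 8. Over the neural progenitor list 2 members were 2-fold higher and 4 lower in that pair, and the median was -0.04. The difference between the pairs was not tested.

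Many genes of neurons were higher at day 8 as well. Of 26 on the array, 15 were higher by 2-fold or more, 1 was lower by as much, 7 lay within 2-fold and 3 were under the floor on both arrays. In the control pair 4.99% of all genes were 2-fold higher and 4.53% lower. Nefm, of a neurofilament subunit, was at 639 at day 5, 268 at day 6 and 2235 at day 8, 8.35-fold higher. Tubb3, of a neuronal tubulin, was at 174 at day 5, 66.5 at day 6 and 527 at day 8, at least 6.08-fold higher, lowest at day 6 of the 3 days, as Nefm was. The RNA-binding protein gene Elavl4 was 7.68-fold higher and Map2, of a dendrite protein, at least 7.34-fold higher. Lhx1 and Stmn2 had been brightest at day 5, and Stmn2, of a growth cone protein, was at 7697 at day 5, 2559 at day 6 and 1673 at day 8. In the MPA pair 10 neuron genes were 2-fold higher and 1 was lower (5.14% of all genes each way), and Nefm was 23.1-fold higher. Limma called 7 of the 21 tested neuron genes higher and 1, Lhx1, lower, against 2.97% and 2.81% of all genes tested. Map2 was under 2-fold with the mean over probe sets.

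Neural crest and dorsal neural tube genes went both ways. Msx1, a factor of the dorsal midline, was at 49.1 at day 5, 129.7 at day 6 and 1004 at day 8, 7.74-fold higher. Its relative Msx2 was at 154 at day 5, 95.6 at day 6 and 506 at day 8, 5.3-fold higher. Snai2, of delaminating crest and mesenchyme, was at 53.2 at day 5, 363 at day 6 and 2353 at day 8, 6.48-fold higher. Tfap2a and Pax3, which specify crest, were 3.1-fold higher and 2.55-fold higher. Sox10, of migrating crest, was at 74.5 at day 5, 432 at day 6 and 56.3 at day 8, at least 4.98-fold lower, and its target Erbb3, of a neuregulin receptor, at 767 at day 5, 1749 at day 6 and 584 at day 8, 2.996-fold lower. Of 19 members, 7 were higher by 2-fold or more, 4 were lower by as much, 5 lay within 2-fold and 3 were under the floor on both arrays. Msx1 was 3.36-fold lower in the MPA pair, opposite to the controls, while Snai2 was 12.6-fold higher and Sox10 6.34-fold lower there. With the mean over probe sets Sox10, Erbb3 and Tfap2a were under 2-fold, and without shared probe sets Msx1 was, at 0.26 (log2).

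Hox genes are described by their position in the clusters; a difference between positions was not tested. They are numbered from the 3' end, and those with low numbers act in the hindbrain and anterior trunk and are switched on early. Among 10 genes of paralogs 1 to 4, 5 were higher by 2-fold or more, 1 was lower by as much and 4 lay within 2-fold. Hoxb1, of the early hindbrain, was at 222 at day 5, 2262 at day 6 and 242 at day 8, 9.36-fold lower, a peak at day 6. Hoxa4 was at 17.7 at day 5, 6.5 at day 6 and 534 at day 8, at least 6.15-fold higher. Hoxd3 was at 3.7 at day 5, 4.6 at day 6 and 421 at day 8, at least 4.86-fold higher. Hoxa2 and Hoxa3 were 2.47-fold higher and 2.81-fold higher, and Hoxc4 was at 238 at day 5, 3862 at day 6 and 4895 at day 8. Among 9 genes of paralogs 5 to 8, 3 were higher by 2-fold or more and 0 lower by as much, 5 lay within 2-fold and 1 was under the floor on both arrays. Hoxb6 was at 2.4 at day 5, 156 at day 6 and 839 at day 8, 5.39-fold higher. Hoxb5 was at 7 at day 5, 578 at day 6 and 1496 at day 8, 2.59-fold higher. Hoxa5, at 15.3 at day 5, 1477 at day 6 and 1685 at day 8, was within 2-fold between day 6 and day 8 and far brighter than at day 5. Among 14 genes of paralogs 9 to 13, 2 were lower by 2-fold or more and 0 higher by as much, 4 lay within 2-fold and 8 were under the floor on both arrays. Hoxb13 was at 96.7 at day 5, 1002 at day 6 and 53.3 at day 8, at least 11.5-fold lower, and Hoxc9 at 25.2 at day 5, 227 at day 6 and 25.6 at day 8, at least 2.61-fold lower, both highest at day 6. The MPA arrays gave Hoxb13 as 1.51-fold lower and Hoxc9 as under the floor on both arrays. Hoxa3 was under 2-fold with the mean over probe sets and without shared probe sets (0.4, log2), and Hoxc9 with the floor at the 65th percentile.

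**Figure D3:**
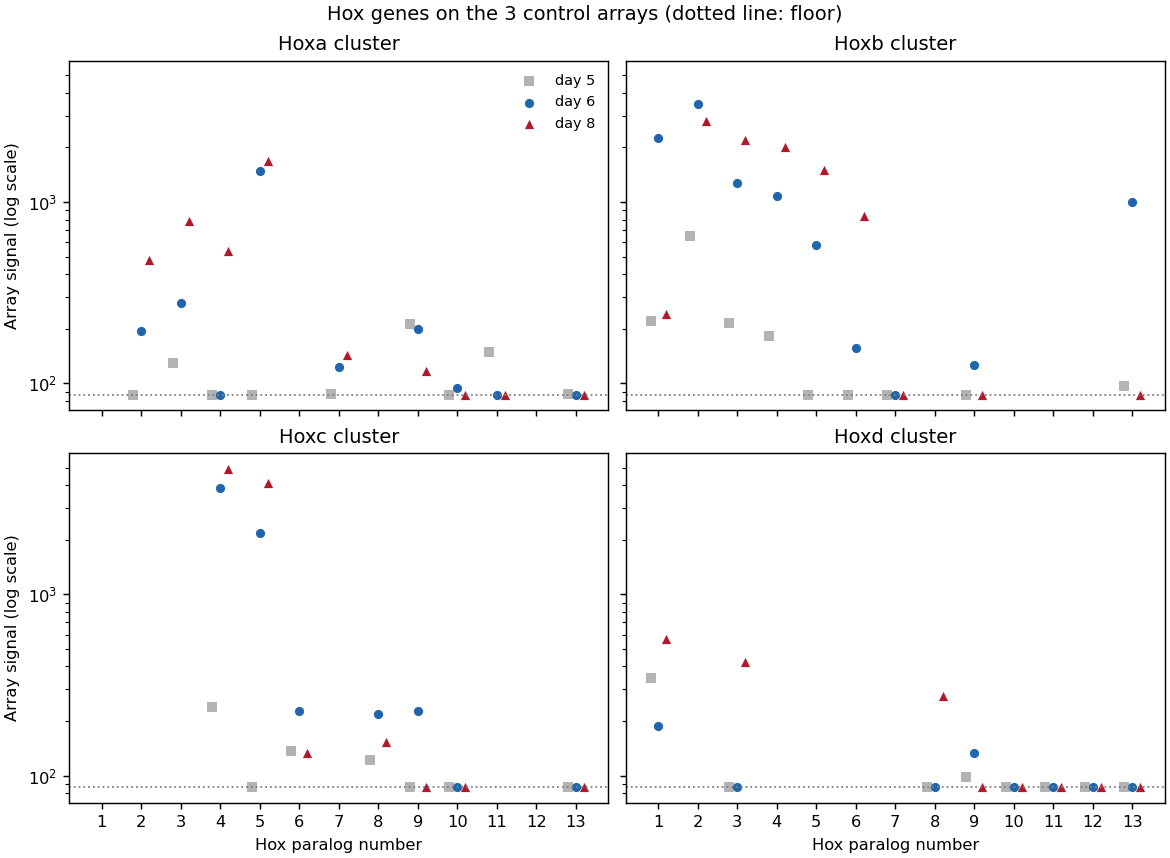
Signals of the Hox genes on the day 5, day 6 and day 8 control arrays by paralog number, 1 panel per cluster (log scale, raised to the floor, shown as a dotted line). Signals compare days within a gene, not genes with each other; Hoxb1, Hoxb2 and Hoxb13 are highest at day 6, while Hoxa2 to Hoxa4 and Hoxb3 to Hoxb6 are highest at day 8.

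Retinoic acid patterns the hindbrain and trunk through its receptors, and cells clear it with Cyp26 enzymes. Cyp26a1 was at 5408 at day 5, 15006 at day 6 and 1985 at day 8, 7.56-fold lower at day 8 than at day 6 (limma log2 difference -3.05, SE 0.19, adjusted p 0.000164, lower in 2 of 2 pairs). The retinal reductase gene Dhrs3 was at 192 at day 5, 1621 at day 6 and 647 at day 8, 2.5-fold lower. The synthesis gene Rdh10, of retinol oxidation, was at 916 at day 5, 451 at day 6 and 1898 at day 8, 4.21-fold higher. Aldh1a1, of retinal oxidation, was 5.47-fold higher, while Aldh1a3, another gene of synthesis, was under the floor on both arrays. Stra6, also on the list, was at 51.5 at day 5, 228 at day 6 and 7.5 at day 8, at least 2.62-fold lower. Raising the floor to the 65th percentile left Stra6 at a log2 difference of -0.37. Of the binding proteins, Crabp1 was at 3711 at day 5, 2189 at day 6 and 11698 at day 8, 5.34-fold higher, whereas Crabp2 was at 746 at day 5, 35426 at day 6 and 21976 at day 8, 1.61-fold lower. The receptor gene Rarb was at 6.1 at day 5, 1818 at day 6 and 3917 at day 8, 2.15-fold higher. The orphan nuclear receptor gene Nr2f1 was at 16.3 at day 5, 778 at day 6 and 4822 at day 8, 6.2-fold higher. Of 24 members, 8 were higher by 2-fold or more, 3 were lower by as much, 11 lay within 2-fold and 2 were under the floor on both arrays. Rarb, Nr2f1 and Crabp2 were thus far brighter at day 6 than at day 5.

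Contractile genes were among the largest increases. Acta2, of smooth muscle actin, was at 3156 at day 5, 1127 at day 6 and 16584 at day 8, 14.7-fold higher (limma log2 difference 4.08, SE 0.19, adjusted p 3.73e-05, higher in 2 of 2 pairs). Tagln, of an actin-binding protein of smooth muscle, was at 2879 at day 5, 784 at day 6 and 8338 at day 8, 10.6-fold higher. Myl9, of a myosin light chain, was at 321 at day 5, 117 at day 6 and 1531 at day 8, 13.1-fold higher. All 3 had a lower signal at day 6 than at day 5. The other Acta2 probe sets were under the floor on both arrays, so its log2 difference of 0 without shared probe sets is no measurement. With the mean over probe sets the difference was 1.29. Of cardiac genes, Actc1, of cardiac actin, was at 173 at day 5, 161 at day 6 and 1239.9 at day 8, 7.71-fold higher. Myh7, of a myosin heavy chain, was at 26.8 at day 5, 13.6 at day 6 and 885 at day 8, at least 10.2-fold higher. Nppb, of a natriuretic peptide, was at 9 at day 5, 4.5 at day 6 and 859 at day 8, at least 9.9-fold higher. Myl3, of another myosin light chain, went the opposite way, at 7.1 at day 5, 2203 at day 6 and 851 at day 8, 2.59-fold lower. Of 28 cardiac and smooth muscle genes, 9 were higher by 2-fold or more, 1 was lower by as much and 9 lay within 2-fold. The shares over all genes were 4.99% higher and 4.53% lower. Another 9 members were under the floor on both arrays by the probe set used, of which 4 (Pln, Smyd1, Tbx20 and Myh11) had another probe set above it. Tnnt2, Actn2, Ttn and Tnni1, defining genes of the cardiac sarcomere, were under the floor on both arrays. Nkx2-5 was at 135 at day 6 and 8.5 at day 8 and Myh6 at 120.1 at day 6 and 2.2 at day 8. The MPA arrays gave at least 50.4-fold higher for Actc1, 28.9-fold higher for Isl1 and 19.3-fold higher for Acta2.

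Among the collagens Col3a1 differed most. This gene of a fibrillar collagen was at 235 at day 5, 402 at day 6 and 5367 at day 8, 13.4-fold higher. Of 25 collagen genes, 4 were higher by 2-fold or more and 0 lower by as much, 19 lay within 2-fold and 2 were under the floor on both arrays. Col12a1 and Col8a1 were 4.13-fold higher and at least 6.14-fold higher, and Col1a1 was at 170 at day 5, 326 at day 6 and 679.7 at day 8, 2.08-fold higher. Col4a1, of basement membrane, was at 1337 at day 5, 12867 at day 6 and 8833 at day 8, 1.46-fold lower. Of 33 other matrix genes, 7 were higher by 2-fold or more, 4 were lower by as much, 21 lay within 2-fold and 1 was under the floor on both arrays. Lox, of a collagen cross-linking enzyme, was at 189 at day 5, 119.6 at day 6 and 771 at day 8, 6.45-fold higher, the laminin gene Lama1 4.02-fold higher and the thrombospondin gene Thbs1 3.92-fold higher. Vim, of vimentin, was at 16392 at day 5, 12046 at day 6 and 27212 at day 8, 2.26-fold higher. The members that were lower included the collagen prolyl hydroxylase genes P4ha2 (5.36-fold lower) and P4ha1 (3.17-fold lower), which are also HIF targets, and Dcn, of decorin (3.55-fold lower). Of the 17 mesenchymal transcription factors, 5 were higher by 2-fold or more and 0 lower by as much, 9 lay within 2-fold and 3 were under the floor on both arrays, with Zeb1 and Twist1 2.18-fold higher and 2.09-fold higher beside Snai2. With the mean over probe sets Col12a1, Dcn and Zeb1 were under 2-fold, and on the log2(signal + floor) scale Col1a1 and Twist1 were. The only other Col12a1 probe set above the floor was lower at day 8 (-0.38, log2).

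Ligands and targets of the TGF-beta family differed in both directions. Tgfb2, a ligand, was at 89.4 at day 5, 204 at day 6 and 1474 at day 8, 7.21-fold higher. The ligand gene Bmp2 was at 724 at day 5, 1406 at day 6 and 292 at day 8, 4.82-fold lower, and Gdf3, of a Nodal-related ligand, at 1298 at day 5, 474 at day 6 and 13.7 at day 8, at least 5.46-fold lower. Of the targets, Id3, an inhibitor of bHLH factors, was at 2088 at day 5, 1842 at day 6 and 7346 at day 8, 3.99-fold higher, and Ccn1, of a matrix-associated signalling protein, was 5.78-fold higher. Grem1, of a BMP antagonist, was at 176 at day 5, 7.1 at day 6 and 371 at day 8, at least 4.28-fold higher, whereas Smad6, of an inhibitory Smad, was 2.68-fold lower. Among 29 members, 11 were higher by 2-fold or more, 3 were lower by as much, 10 lay within 2-fold and 5 were under the floor on both arrays. Across all genes 4.99% were 2-fold higher and 4.53% lower. Limma called 8 of 23 higher and 2 lower, against 2.97% and 2.81% of all genes tested. Tgfb2 was 5.08-fold higher and Bmp2 5.85-fold lower in the MPA pair.

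Glycolysis genes were lower at day 8 than at day 6 in all 19 members. Glycolysis turns glucose into pyruvate and lactate, and hypoxia-inducible factor (HIF) raises most of its enzymes. Of 19 genes on the array, 16 were lower by 2-fold or more and 0 higher by as much and 3 lay within 2-fold, against 4.53% of all genes and 6.43% of measured genes that were 2-fold lower. Uptake comes first, and the glucose transporter gene Slc2a3 was at 63029 at day 5, 54606 at day 6 and 19376 at day 8, 2.82-fold lower. Pfkp, of phosphofructokinase, which catalyses the committed step, was at 1958 at day 5, 2421 at day 6 and 233 at day 8, 10.4-fold lower, though the mean over its probe sets gave a log2 difference of -1.18 against -3.38, and of its 2 other probe sets, 1 was lower and 1 higher at day 8. Its isoform gene Pfkl was at 3169 at day 5, 2879.7 at day 6 and 688 at day 8, 4.18-fold lower. All 3 had similar signals at day 5 and day 6 and a far lower one at day 8. Aldoc, of aldolase, was at 2939 at day 5, 5293 at day 6 and 378 at day 8, 13.997-fold lower. Tpi1, of triose phosphate isomerase, was at 32675 at day 5, 31236 at day 6 and 7174 at day 8, 4.35-fold lower. Pdk1, of a kinase that keeps pyruvate out of mitochondria, was at 4016 at day 5, 4378 at day 6 and 848 at day 8, 5.16-fold lower. Pgk1, of phosphoglycerate kinase, and Ldha, of lactate dehydrogenase, were 2.12-fold lower and 2.88-fold lower. Slc2a1, Pfkm and Pfkfb4 were within 2-fold. Pgk1 was just under 2-fold with the mean over probe sets, and without shared probe sets Pfkl was at -0.42 and Aldoc at 0 (log2). The other Aldoc probe set was under the floor on both arrays, so its 0 is no measurement.

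The sequence just before and after the start of Aldoc is shown because it was the glycolysis gene with the largest difference. HIF binds the core ACGTG. The RefSeq window runs from 250 bases before to 50 bases after a gene's start (GRCm38.p6), and capitals mark ACGTG or its reverse complement.
Aldoc, chr11:78322823-78323122, plus strand: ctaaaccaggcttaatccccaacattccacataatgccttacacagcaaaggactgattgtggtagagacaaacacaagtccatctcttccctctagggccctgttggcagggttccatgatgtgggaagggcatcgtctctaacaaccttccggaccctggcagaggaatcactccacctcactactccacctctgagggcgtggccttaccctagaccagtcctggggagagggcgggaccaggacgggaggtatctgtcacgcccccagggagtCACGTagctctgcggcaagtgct
This window held 1 match, 28 bases after the start, and those of Pfkp and Pdk1 held 0. Of 18 glycolysis genes with a window, 9 (50%) held the core on either strand, and so did 23.2% of the windows of 14452 array genes. A match is a description of the sequence and not a binding site.

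Several other HIF targets were lower too. Of 25, 1 was higher by 2-fold or more, 12 were lower by as much, 11 lay within 2-fold and 1 was under the floor on both arrays. Across all genes 4.99% were 2-fold higher and 4.53% lower. The list median was -0.71 and ranged from -1.41 to -0.61 over the alternatives. Ddit4, of an inhibitor of mTORC1, was at 39138 at day 5, 21819.5 at day 6 and 1367 at day 8, 15.963-fold lower. Egln3, of a HIF prolyl hydroxylase, was at 3716 at day 5, 1614 at day 6 and 126 at day 8, 12.8-fold lower. Bnip3, of a mitophagy receptor, was at 13658 at day 5, 14278 at day 6 and 1803 at day 8, 7.92-fold lower. Ero1a, of oxidative protein folding, was 4.83-fold lower, whereas Cited2, an inhibitor of HIF co-activation, was 2.46-fold higher (under 2-fold with the mean over probe sets). Upp1, of uridine phosphorylase, which is on neither list, was at 13388 at day 5, 10131 at day 6 and 372 at day 8, 27.3-fold lower.

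In the MPA pair the medians of these groups lay on the other side of 0. There the glycolysis median was 0.40 in place of -1.46, with 2 members 2-fold higher and 0 lower, and the HIF target median was 0.70 in place of -0.71. Ddit4 and Egln3 were lower there as well (1.93-fold lower and 1.32-fold lower). Bnip3 was at 2921 at day 6 and 13338 at day 8 with MPA, 4.57-fold higher. Tpi1 was at 13777 at day 6 and 18135 at day 8 with MPA, 1.32-fold higher, and Pfkp at 639 at day 6 and 1277 at day 8, 1.997-fold higher. Their day 6 signals with MPA lay well below those of the day 6 control. Sterol synthesis genes had a like split. Of 19 in the controls, 3 were lower by 2-fold or more and 0 higher by as much and 16 lay within 2-fold, with Pmvk 2.53-fold lower, Ebp 2.36-fold lower and Insig1, of a sterol sensor, 2.25-fold lower. Their median was -0.60 in the controls and 0.75 with MPA, and Ebp alone of these 3 was 2-fold lower in both pairs (2.25-fold lower with MPA). The difference between the pairs was not tested, and the limma fit takes it as error. It called 1 of 19 glycolysis genes, Slc2a3, and 1 of 19 sterol genes, Ebp, lower, and 1 HIF target, Cited2, higher. Among all genes tested 2.81% were called lower and 2.97% higher.

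**Figure D4:**
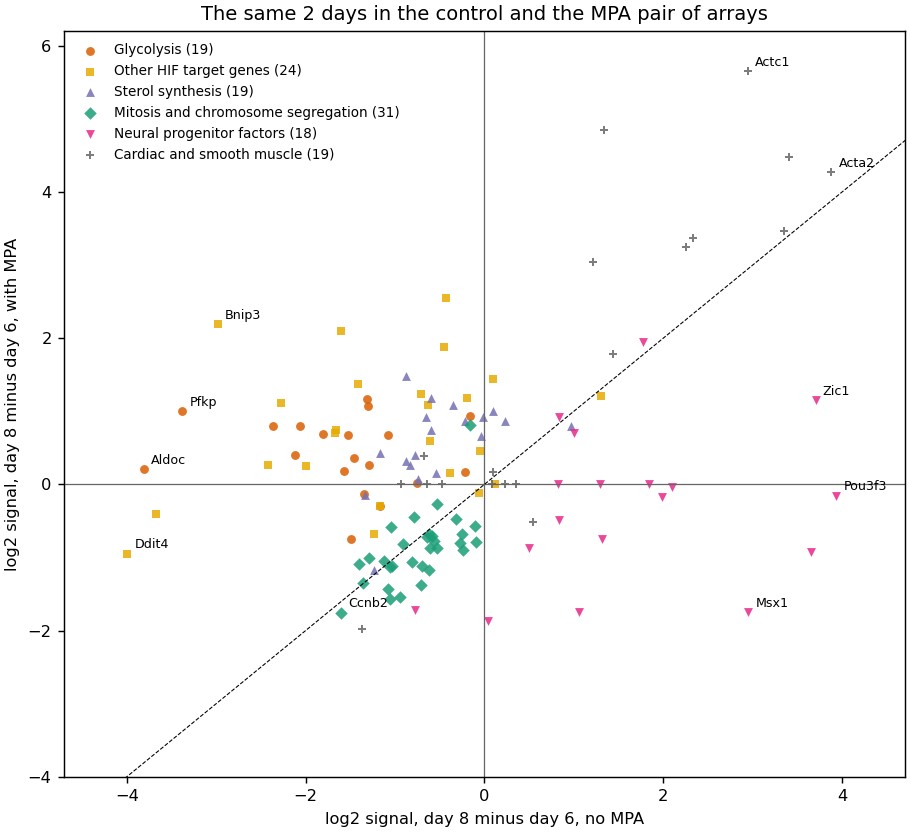
Difference between day 8 and day 6 (log2) in the controls (horizontal) and with MPA (vertical) for measured members of 6 gene lists, 1 point per gene and 1 array per group. Mitosis genes apart from Foxm1 lie below 0 on both axes, most glycolysis and HIF target genes lie left of 0 on the horizontal axis and above 0 on the vertical one, and several neural progenitor genes lie far right at or below 0; the dashed line marks equal differences.

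Mitosis genes were lower in the controls and, apart from Foxm1, with MPA. Of 31 on the array, 10 were lower by 2-fold or more and 0 higher by as much and 21 lay within 2-fold, and all 31 had a signal below that of day 6. Across all genes 4.53% were 2-fold lower in the controls. Ccnb2, of a B-type cyclin that drives entry into mitosis, was at 7184 at day 5, 7959.9 at day 6 and 2614 at day 8, 3.04-fold lower. Hmmr, of a spindle protein, was at 4277 at day 5, 6669.9 at day 6 and 2520.5 at day 8, 2.65-fold lower. Bub1b, of the spindle checkpoint, was at 1866 at day 5, 4381 at day 6 and 1714 at day 8, 2.56-fold lower. The kinesin gene Kif20a and the kinase gene Aurka were 2.45-fold lower and 2.17-fold lower. The median was -0.70. Aurka and Bub1b were under 2-fold with the mean over probe sets, and the other Aurka probe set was higher at day 8 (0.25, log2). Without shared probe sets Hmmr was at 0, from a probe set under the floor on both arrays. Its 3 other probe sets above the floor were lower, at log2 differences from -1.68 to -1.25. The day 6 signals of Hmmr, Bub1b and Kif20a were above those of day 5. Of the same genes, 14 were 2-fold lower with MPA, at a median of -0.87. Limma called 14 of 31 lower, against 2.81% of all genes tested. Among them was Ccnb2 (log2 difference -1.68, SE 0.19, adjusted p 0.0021), lower in 2 of 2 pairs.

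Cell cycle genes of late phases often carry a CHR element (TTTGAA, or as a variant TTCGAA) near the start, with CCAAT boxes upstream. The windows of the 3 mitosis genes with the largest differences are shown to give these letters in place, with matches to either element or to the CCAAT box in capitals, on either strand.
Ccnb2, chr9:70421505-70421804, minus strand: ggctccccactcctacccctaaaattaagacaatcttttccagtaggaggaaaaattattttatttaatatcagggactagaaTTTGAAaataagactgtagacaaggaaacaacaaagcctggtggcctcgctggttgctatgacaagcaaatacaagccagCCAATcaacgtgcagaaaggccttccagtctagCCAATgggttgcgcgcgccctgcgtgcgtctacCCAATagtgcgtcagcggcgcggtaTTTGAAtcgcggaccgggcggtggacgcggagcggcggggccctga
Hmmr, chr11:40733388-40733687, minus strand: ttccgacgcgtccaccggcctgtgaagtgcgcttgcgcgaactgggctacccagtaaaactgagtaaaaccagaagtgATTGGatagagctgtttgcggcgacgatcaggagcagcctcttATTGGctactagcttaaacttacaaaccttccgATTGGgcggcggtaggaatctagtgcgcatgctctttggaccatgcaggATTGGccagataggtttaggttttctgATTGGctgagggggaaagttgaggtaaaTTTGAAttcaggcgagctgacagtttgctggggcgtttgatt
Bub1b, chr2:118597961-118598260, plus strand: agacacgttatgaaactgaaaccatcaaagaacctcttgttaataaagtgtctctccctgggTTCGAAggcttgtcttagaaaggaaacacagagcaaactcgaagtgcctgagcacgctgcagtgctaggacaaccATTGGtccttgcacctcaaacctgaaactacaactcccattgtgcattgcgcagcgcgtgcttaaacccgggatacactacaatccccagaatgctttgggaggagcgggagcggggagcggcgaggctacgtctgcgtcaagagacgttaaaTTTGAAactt
No match overlapped another. The element TTTGAA began 5 bases after the start in Ccnb2, with another match at -167, 9 bases after it in Hmmr and 41 bases after it in Bub1b, which also held TTCGAA at -188. Ccnb2 held CCAAT at -21, -54 and -87, and Hmmr held 5 matches, all on the opposite strand. Of 25 mitosis genes with a window, 20 (80%) held TTTGAA or the variant TTCGAA, and so did 2174 of the windows of 14452 array genes. CCAAT was in 19 (76%) of the 25 windows and in 38.2% of the array's.

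DNA replication genes lay within 2-fold. Of 30, 0 were 2-fold apart and 30 lay within 2-fold, with a median of -0.09. Tk1, of thymidine kinase, was at 881 at day 5, 559.6 at day 6 and 939.7 at day 8. Rfc4, of the clamp loader, was at 2199 at day 5, 3308 at day 6 and 1802 at day 8. Their median with MPA was -0.63, with 6 members 2-fold lower. Of 17 D cyclins and cell cycle inhibitors, 6 were higher by 2-fold or more and 0 lower by as much and 11 lay within 2-fold. Ccnd2, of the G1 cyclin D2, was at 1095 at day 5, 2805 at day 6 and 18502 at day 8, 6.6-fold higher. Ccnd1, of cyclin D1, was at 2941 at day 5, 788 at day 6 and 3457 at day 8, 4.39-fold higher. The inhibitor genes Cdkn2b and Cdkn1c were 3.45-fold higher and 2.75-fold higher. Of 11 genes of the Myc family, 5 were higher by 2-fold or more and 0 lower by as much and 6 lay within 2-fold. Myc was at 947 at day 5, 364 at day 6 and 1953 at day 8, 5.36-fold higher, Mycl 2.49-fold higher and Mycn 2.25-fold higher. Mycl and Mycn were under 2-fold with the mean over probe sets. With MPA, Myc and Ccnd1 were 1.37-fold higher and 1.17-fold lower.

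Wnt ligands and feedback targets were higher more often than lower in the controls but not with MPA. Of 32, 9 were higher by 2-fold or more, 1 was lower by as much, 18 lay within 2-fold and 4 were under the floor on both arrays. The shares over all genes were 4.99% higher and 4.53% lower. The ligand gene Wnt6 was at 45.9 at day 5, 47 at day 6 and 421 at day 8, at least 4.85-fold higher, and Wnt4 at 366 at day 5, 137 at day 6 and 408 at day 8, 2.98-fold higher. The direct target Sp5 was at 659 at day 5, 153 at day 6 and 691 at day 8, 4.53-fold higher, and Nkd1, of a feedback inhibitor, was 4.27-fold higher. Sfrp2, of a secreted Wnt antagonist, was 2.68-fold higher, whereas its relative Sfrp5, of foregut endoderm, was at 90.5 at day 5, 2052 at day 6 and 393 at day 8, 5.22-fold lower, the only member 2-fold lower. With MPA, Sp5 was at 1022 at day 6 and 208 at day 8, 4.92-fold lower, and Nkd1 was 1.48-fold lower. In that pair 2 members were 2-fold higher and 7 lower, and the difference between the pairs was not tested. Nkd1 was under 2-fold in the controls with the mean over probe sets.

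FGF genes were divided. Etv5, a target of FGF and ERK signals, was at 1685 at day 5, 1136 at day 6 and 128 at day 8, 8.88-fold lower (limma log2 difference -3.33, SE 0.33, adjusted p 0.00143, lower in 2 of 2 pairs). Fgfbp3, of an FGF-binding protein, was at 694 at day 5, 4679.7 at day 6 and 1925 at day 8, 2.43-fold lower, and the ligand gene Fgf15 was 2.21-fold lower. The feedback inhibitor genes Spry2 and Dusp4 were 2.36-fold higher and 2.49-fold higher, and Fgf18 was at 113 at day 5, 5.7 at day 6 and 298 at day 8, at least 3.43-fold higher. Among 23 members, 4 were higher by 2-fold or more, 6 were lower by as much, 9 lay within 2-fold and 4 were under the floor on both arrays. Across all genes 4.99% were 2-fold higher and 4.53% lower. Fgf18 was under 2-fold with the floor at the 65th percentile, and Fgf15 on the log2(signal + floor) scale.

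Of the Notch pathway, the target Hey1 was at 548 at day 5, 2869 at day 6 and 269.5 at day 8, 10.6-fold lower (limma log2 difference -3.38, SE 0.29, adjusted p 0.000695, lower in 2 of 2 pairs), and the target Hes1 1.97-fold lower, while Hes5 was higher as given above. Dlk1, of a non-canonical ligand, was at 49.3 at day 5, 102 at day 6 and 1258 at day 8, 12.4-fold higher, and the ligand gene Jag1 2.98-fold higher. Without shared probe sets Dlk1 had a log2 difference of 0, as its other probe set was under the floor on both arrays. Notch1 was 2.9-fold higher and Notch3 2.07-fold lower. Hey1, Hes1 and Hes5 thus did not move as a group. Notch1 was 3.39-fold lower with MPA. Among 25 members, 4 were higher by 2-fold or more, 4 were lower by as much, 15 lay within 2-fold and 2 were under the floor on both arrays. The shares over all genes were 4.99% higher and 4.53% lower. Hedgehog receptors and co-receptors gave 2.34-fold higher for Cdon, 2.17-fold higher for Gas1 and 2.13-fold higher for Boc, with Gli3, a transcription factor of the pathway, 2.17-fold higher. With the mean over probe sets Cdon, Gas1, Boc and Gli3 were under 2-fold, Cdon at 0.31 and Gas1 at 0.44 (log2), and the other Cdon probe set and 1 of Gas1 were lower at day 8. Ptch1, a receptor and direct target, was at 3403 at day 6 and 3306 at day 8, and Gli1, the other common target readout, at 123 at day 6 and 117 at day 8. Shh itself was at 1828 at day 5, 105 at day 6 and 74.4 at day 8.

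Imprinted growth genes held several bright members that were higher. Peg3, of a zinc finger protein, was at 16294 at day 5, 15459 at day 6 and 51622 at day 8, 3.34-fold higher (limma log2 difference 1.71, SE 0.13, adjusted p 0.00047, higher in 2 of 2 pairs). Plagl1, a zinc finger factor, was at 6863 at day 5, 4769 at day 6 and 27409.7 at day 8, 5.75-fold higher, and Igf2, of a fetal growth factor, at 501 at day 5, 580.5 at day 6 and 1481 at day 8, 2.55-fold higher. Dlk1 and Cdkn1c, given above, belong to this list too. Of 19, 5 were higher by 2-fold or more and 0 lower by as much, 12 lay within 2-fold and 2 were under the floor on both arrays. Igf2 was under 2-fold with the mean over probe sets, and its other probe set was lower at day 8 (-0.44, log2). Limma called 6 of 17 higher, against 2.97% of all genes tested.

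Many interferon response and antigen presentation genes were lower. Of 22, 1 was higher by 2-fold or more, 9 were lower by as much, 8 lay within 2-fold and 4 were under the floor on both arrays. Across all genes 4.99% were 2-fold higher and 4.53% lower. H2-K1, of a class I heavy chain, was at 3302 at day 5, 5178 at day 6 and 1203 at day 8, 4.3-fold lower. B2m, of the class I light chain, was at 2784 at day 5, 3419.8 at day 6 and 3489 at day 8, 1.02-fold higher. Bst2, Ifitm3 and the immunoproteasome gene Psmb8 were 3.97-fold lower, 3.73-fold lower and at least 3.76-fold lower. Ifit2 was 2.32-fold higher, the only member higher by as much. Psmb8 was under 2-fold with the mean over probe sets, and both with the floor at the 65th percentile. The MPA arrays held 11 members 2-fold lower and 0 higher, with Ifitm3 8.33-fold lower. Limma called 9 of 17 lower, against 2.81% of all genes tested.

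**Figure D5:**
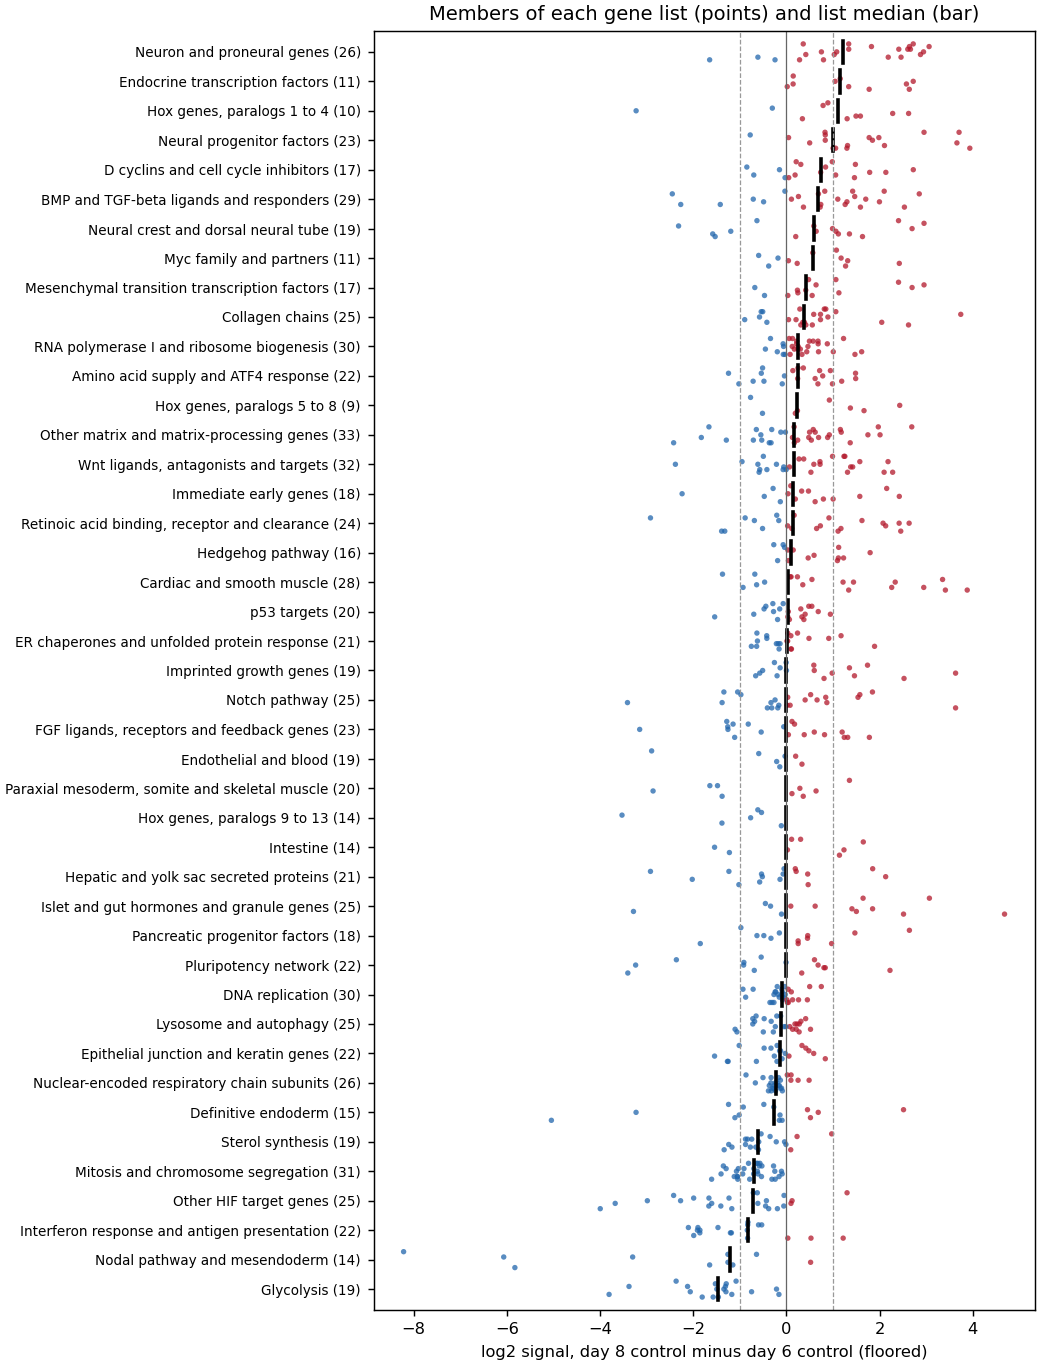
Difference between day 8 and day 6 in the controls (log2, floored) for members of 43 gene lists, with the number of members on the array in brackets. Points are measured genes (red higher, blue lower), the black bar is the median over all members with those under the floor at 0, and dashed lines mark 2-fold; by median, glycolysis and Nodal genes lie lowest and neuron and endocrine factor genes highest.

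Some single genes outside these groups were among the largest differences. Txnip, of a glucose-responsive thioredoxin inhibitor, was at 1746 at day 5, 1769 at day 6 and 102 at day 8, 17.3-fold lower, and 20.9-fold lower with MPA. Csn3, of kappa-casein, was at 40.5 at day 5, 5257 at day 6 and 429.5 at day 8, 12.2-fold lower. The forkhead factor gene Foxq1 was at 43.7 at day 5, 1263 at day 6 and 6.5 at day 8, at least 14.6-fold lower. Both were under the floor at day 5 and highest at day 6. Kcnk6, of a potassium channel, was at 262 at day 5, 1379 at day 6 and 129 at day 8, 10.7-fold lower. On the other side Flrt2, of a cell adhesion and guidance protein, was at 149 at day 5, 128 at day 6 and 2355 at day 8, 18.5-fold higher. Pdgfc, of a growth factor, was at 200.4 at day 5, 206 at day 6 and 3206 at day 8, 15.6-fold higher. Sema3c, of a secreted semaphorin, was at 316 at day 5, 192 at day 6 and 2988 at day 8, 15.5-fold higher. Vnn1, of pantetheinase, was at 50 at day 5, 90.8 at day 6 and 965 at day 8, 10.6-fold higher. Ctnnd2, of a neuronal catenin, was at 84.3 at day 5, 60.6 at day 6 and 1095 at day 8, at least 12.6-fold higher. Nepn was at 96.7 at day 5, 60.3 at day 6 and 1244 at day 8, at least 14.3-fold higher. Blvrb, of biliverdin reductase B, was 8.28-fold lower. All of these were called by limma, Ctnnd2 and Nepn with day 6 signals under the floor in both pairs.

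Housekeeping and stress groups are set against 4.99% of all genes that were 2-fold higher and 4.53% that were lower. Of 26 respiratory chain genes, 0 were 2-fold apart and 26 lay within 2-fold, with a median of -0.22 and 21 lower by any amount. Of 30 ribosome biogenesis genes, 4 were higher by 2-fold or more and 0 lower by as much and 26 lay within 2-fold. The 4 were Rrp1b (1518 at day 6 and 4645 at day 8), Bop1 (197 at day 6 and 546 at day 8), Rrn3, a polymerase I factor (846 at day 6 and 1977 at day 8), and Polr1a, the largest subunit of that polymerase (469 at day 6 and 941 at day 8). With the mean over probe sets Rrp1b, Bop1 and Polr1a were under 2-fold. Of 21 genes of the unfolded protein response, 2 were higher by 2-fold or more and 0 lower by as much and 19 lay within 2-fold, and Herpud1, of ER-associated degradation, was at 404 at day 5, 469.5 at day 6 and 1741 at day 8, 3.71-fold higher. Of 22 amino acid supply genes, 3 were higher by 2-fold or more, 2 were lower by as much, 16 lay within 2-fold and 1 was under the floor on both arrays, with Slc7a1, an arginine transporter gene, 2.8-fold higher and Slc7a3, its relative, 2.37-fold lower. Of 20 p53 targets, 1 was lower by 2-fold or more and 0 higher by as much and 19 lay within 2-fold, with Sesn1 2.91-fold lower. Of 25 lysosome and autophagy genes, 2 were lower by 2-fold or more and 0 higher by as much and 23 lay within 2-fold.

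Immediate early genes were mixed. Of 18, 4 were higher by 2-fold or more, 1 was lower by as much, 10 lay within 2-fold and 3 were under the floor on both arrays, with Fos at 164 at day 5, 67.4 at day 6 and 385 at day 8, at least 4.44-fold higher, and Ier3 at 6141 at day 5, 1694 at day 6 and 359 at day 8, 4.72-fold lower. Markers of blood, vessel and skeletal muscle cells were mostly under the floor. Of 19 endothelial and blood genes, 1 was lower by 2-fold or more and 0 higher by as much, 6 lay within 2-fold and 12 were under the floor on both arrays, and Flt1, of a VEGF receptor, was at 2102 at day 5, 3468 at day 6 and 467 at day 8, 7.43-fold lower, while Pecam1, Tek, Gata1 and Ptprc were under the floor on both arrays. Of 20 somite and skeletal muscle genes, 1 was higher by 2-fold or more, 4 were lower by as much, 4 lay within 2-fold and 11 were under the floor on both arrays. Foxc2, a factor of paraxial mesoderm, was at 5 at day 5, 2491 at day 6 and 342 at day 8, 7.28-fold lower. Meox1, of somites, was at 8.4 at day 5, 1712 at day 6 and 548 at day 8, 3.13-fold lower. Both were highest at day 6. Myod1, Myog and Myf5 were under the floor on both arrays.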

How the data were processed

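RNA from 5 mouse cultures was measured on 1 Affymetrix array each. The deposited values are linear intensity signals, made by the authors with MAS5, per the submitters' processing notes; each array's 2% trimmed mean is 500. Neither MAS5 settings nor culture replicates are given in the sources used here. The p-values rest on the disagreement between the control and MPA pairs, moderated over all genes. They do not measure the spread between cultures of 1 group.

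Of 45101 probe sets, 64 controls were left out, 34945 had 1 gene symbol in the platform annotation, 932 had several and 9160 were unnamed. Signals were raised to the floor (the median), log2-transformed and represented by the brightest probe set per gene. Folds of genes with 1 array under the floor are set against the floor. No test compares the control arrays alone. limma 3.58.1 (R 4.3.3; trend, robust, Benjamini-Hochberg) was fitted to 4 arrays with MPA as a term, keeping genes over the floor in 2 or more. Tested on simulated data with 11599 genes, it called 55.4% of the genes changed by 1 log2 unit and 100% of those changed by 2. False calls numbered 17 among 11399 unchanged genes. The simulation gave genes of like signal the same error and held no difference between the pairs beyond that error. Its results therefore do not show how the fit performs on the real arrays.

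The members and 43 gene lists (853 of 908 genes matched) were chosen with earlier results of these data known. Genes named were the 15 highest and 15 lowest, the 10 highest and 10 lowest above the floor on both arrays and by limma, up to 5 each way per list, members under the floor on both arrays, and a fixed set of markers. Slc2a3 was named after its values were seen. The text gives those of them that it discusses. Alternatives were the floor, scaling, probe set summary, fold and limma settings. Figures and tables were made with Python 3.11.15.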

Additional observations from a re-analysis of the deposited data

Results flagged for a closer look

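For several results the 2 control arrays and the 2 MPA arrays gave opposite differences between day 8 and day 6. With 1 array per group none of these differences between pairs was tested. Values are log2 differences, day 8 minus day 6.

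Bnip3, of a mitophagy receptor, was at -2.99 without MPA and 2.19 with MPA, 5.18 apart. Ero1a, of oxidative folding in the endoplasmic reticulum, was at -2.27 and 1.12, 3.39 apart. Ier3, an immediate early gene, was at -2.24 and 1.65, 3.89 apart. Vldlr, of a lipoprotein receptor, was at -1.02 and 2.05, 3.07 apart. In the controls Vldlr was under 2-fold with the mean over probe sets (-0.85) and without shared probe sets (-0.89). For these 4 genes the value was negative in the controls.

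The order was the other way round for 3 developmental genes. The homeobox gene Msx1 was at 2.95 without MPA and -1.75 with MPA, so the MPA value minus the control value was -4.7. The Wnt target Sp5 was at 2.18 and -2.30, a difference of -4.48. The receptor gene Notch1 was at 1.54 and -1.76, a difference of -3.30.

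The median over the 19 glycolysis genes was -1.46 without MPA and 0.40 with MPA, 1.86 apart. Over the 25 HIF targets it was -0.71 and 0.70, 1.41 apart. Over the 19 sterol synthesis genes it was -0.60 and 0.75, 1.35 apart. The 30 ribosome biogenesis genes were at 0.25 and -0.21, a difference of -0.46, small beside the others.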

How the results depend on the processing

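With 1 array per group, no array could be left out and no spread is known. No group has replicate numbers, so no block by replicate was fitted; the MPA term pairs the 4 arrays by treatment. Counts of genes 2-fold apart (1732, with 907 higher and 825 lower) depended on the fold, the floor and the probe sets. They were 5775 (3005 and 2770) with the floor at the 25th percentile, 1142 (606 and 536) at the 65th, 1066 (527 and 539) with the mean over probe sets, and 488 (270 and 218) at 3-fold. After quantile normalization 770 were higher and 963 lower, and after median centring 856 and 872, against 907 and 825 as scaled by the authors, so which direction held more genes turned with the scaling. The limma count of 670 was 352 without the MPA term, 71 without trend and robust, 335 after quantile normalization, 393 without probe sets that may cross-hybridize and 15 with the mean over probe sets. Without the filter limma called 0 genes, with 250 higher and 248 lower at an unadjusted p under 0.05. The cause was not tested. Of 214 named genes that were 2-fold apart, 1363 of 1472 values over 7 alternatives kept direction and 2-fold size, 108 were under 2-fold and 1 changed sign, Epcam at 0.33 with the mean over probe sets against -1.02. Over the 7 alternatives list medians ranged, for endocrine factors between 0.13 and 2.70 and for Nodal genes between -1.43 and -0.23. Signals near the floor limit what low genes can show.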
